A study of Mus musculus with 230 samples.

Results

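Single sensory neurons from mouse dorsal root ganglia (DRG) were ranked by Nefh, the gene of the heavy neurofilament subunit, and the 18 cells at the top of the ranking were compared with the 18 at the bottom. Of 69 single-cell RNA columns, 55 had at least 100000 counts outside the spike-ins and outside 1 feature that took a large share of every library, and these 55 were ranked. The other 14 fell under that minimum. The members were thus chosen by their own Nefh values, scaled to the same total (CPM, the usual scaling of counts to library size), and these values are given as a description only. The remaining 19 cells form the middle of the ranking. All cells came from a C57BL/6 X CAST/Ei cross. Neurons of the L4 and L5 ganglia were isolated by hand after enzymatic dissociation, and the cytoplasm of each went to a SMART-seq2 library, so RNA in the nucleus was not sampled. Injury means surgery on the sciatic nerve. Of the ranked cells, 17 were injured and 12 intact at an age of 1 month, while 18 were injured and 8 intact at an age of 1 year. The labels do not say which animal a cell came from, how long after surgery it was taken, or whether intact neurons came from operated mice. Each group therefore counts as 1 sample, no p-value is given for cells, and differences are descriptions of these libraries. DNA methylation of the nuclei is not analysed here.

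Neurofilaments are the intermediate filaments of neurons, and their heavy subunit is most abundant in the large neurons whose axons are myelinated. In DRG these myelinated neurons carry touch and body position, and some fast pain. They fire at high rates with sodium channels of the Nav1.1 and Nav1.6 type and with fast potassium channels. Small neurons with unmyelinated axons carry pain, itch and temperature. They use sodium channels that resist tetrodotoxin and fall into peptidergic cells, which release neuropeptides, and non-peptidergic cells, many of which carry receptors of the Mrgpr family. When the axon of either type is cut, the cell body switches on a growth program led by transcription factors such as Atf3 and Jun.

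The promoters of 3 subtype markers are shown, chosen after their levels were seen as 1 marker each of large afferents, of nociceptors and of non-peptidergic cells. Pvalb encodes parvalbumin, a calcium buffer of muscle-spindle afferents, Scn11a encodes the sodium channel Nav1.9 of nociceptors, and Mrgprd encodes a receptor of non-peptidergic nociceptors. Each is the 250 bases before the start of the RefSeq gene (GRCm38.p6), read 5′ to 3′ on the gene's strand, with CpG dinucleotides, the sites of most DNA methylation, in capitals. Pvalb lies on the minus strand at chr15:78206401-78206650, Scn11a on the minus strand at chr9:119825457-119825706, and Mrgprd on the plus strand at chr7:145314585-145314834.
Pvalb: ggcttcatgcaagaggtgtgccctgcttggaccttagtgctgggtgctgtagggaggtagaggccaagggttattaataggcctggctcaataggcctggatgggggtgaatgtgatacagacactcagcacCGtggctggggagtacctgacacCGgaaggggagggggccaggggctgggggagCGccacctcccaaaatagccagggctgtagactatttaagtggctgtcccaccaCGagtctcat
Scn11a: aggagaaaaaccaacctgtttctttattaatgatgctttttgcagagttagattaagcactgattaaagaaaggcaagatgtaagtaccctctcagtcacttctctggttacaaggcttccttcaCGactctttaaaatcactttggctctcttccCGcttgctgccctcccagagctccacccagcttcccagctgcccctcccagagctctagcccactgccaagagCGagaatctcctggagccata
Mrgprd: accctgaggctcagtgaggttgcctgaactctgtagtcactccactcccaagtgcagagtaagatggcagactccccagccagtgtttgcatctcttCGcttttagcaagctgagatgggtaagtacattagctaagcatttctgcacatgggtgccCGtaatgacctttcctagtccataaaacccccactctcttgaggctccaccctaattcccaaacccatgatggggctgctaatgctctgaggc
The Pvalb promoter holds 4 CpG, that of Scn11a 3 and that of Mrgprd 2. Over the 20050 RefSeq promoters of this length the median was 8 CpG (range 0 to 56), 92.6% held at least 1, and 37.1% held 4 or fewer. The motif TATAAA, searched on both strands, occurs in none of the 3 windows and in 12.2% of all promoters. Among other genes whose levels differed between the ends, Scn8a holds 30 CpG, Tac1 17, Slc17a7 9, Scn10a 8 and Calca 4. The RefSeq starts of Scn8a, Scn10a and Tac1 lie 787, 290 and 182 bases from those of the deposited annotation. A count of CpG describes the sequence only.

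Nefh (chr11:4938754-4948064 in the deposited annotation of GRCm38) ranged from 1985 to 8164 CPM in the high-Nefh cells, with a median of 3401. In the low-Nefh cells it ranged from 0 to 662 CPM with a median of 200.2, and in the middle cells from 690 to 1968 CPM with a median of 1261. The lowest cell in the high set stood at 1985 CPM, next to a middle cell at 1968 CPM (injured 1 month, replicate 14), and the highest low-Nefh cell stood at 662 CPM, next to a middle cell at 690 CPM (injured 1 month, replicate 20). The values just inside and just outside each cut were thus close. The high set held 3 injured and 4 intact cells of 1-month mice, with 5 injured and 6 intact cells of 1-year mice. The low set held 5 injured and 5 intact cells of 1-month mice, 7 injured cells of 1-year mice and 1 intact cell of a 1-year mouse. Median Nefh by group was 912 CPM in injured and 942 CPM in intact 1-month cells, and 1318 CPM in injured and 2364 CPM in intact cells at 1 year. Some cell names end in S, M or L, whose meaning is not given in the sources used here. Median Nefh was 215 CPM over 13 cells named S, 845 CPM over 18 named M and 1387 CPM over 12 named L.

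**Figure D1:**
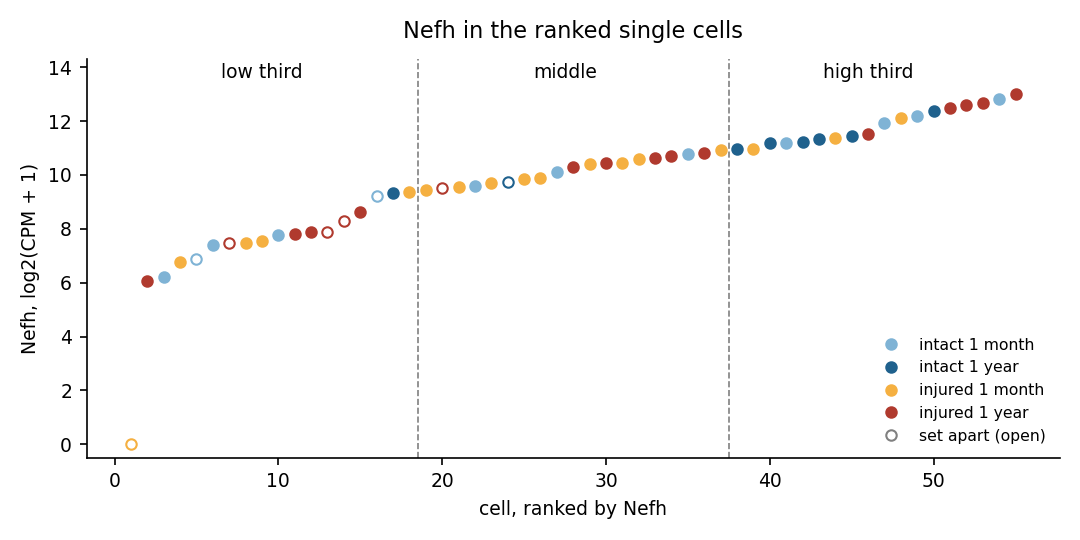
Nefh in the 55 ranked cells. The x axis is the rank and the y axis log2(CPM + 1); colours give the group, open circles the 8 cells set apart, and dashed lines the cuts. Apart from 1 cell at 0 CPM, values climb with no gap at either cut, from the low cells (0 to 662 CPM) to the high cells (1985 to 8164 CPM), and intact 1-year cells sit mostly in the high set.

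The ends of the ranking also differed in library quality. High-Nefh cells held 123203 to 11146566 counts and detected 8015 to 17559 genes (median 13910), and low-Nefh cells held 119832 to 8529686 counts and detected 560 to 16206 genes (median 11461). Mitochondrial genes took 0.0828% to 19% of counts in high-Nefh cells (median 2.48%) and 0.787% to 68.3% in low-Nefh cells (median 4.73%). In 1-month cells, counts per spike-in count had a median of 5.37 (2.15 to 10.8) in 7 high-Nefh cells. In 10 low-Nefh cells the median was 0.557 (0.00323 to 3.96), or 1.09 (0.310 to 3.96) over the 7 not set apart by the rule below. Cells with under 5000 genes or at least 20% mitochondrial counts were set apart, by a rule chosen after seeing the data. These were 6 low-Nefh cells (injured 1 month replicate 18, intact 1 month replicates 15 and 16, injured 1 year replicates 18, 19 and 20), 2 middle cells and 0 high-Nefh cells. Without them the low-Nefh cells detected 9866 to 16206 genes (median 11761). Differences below are over all 18 low-Nefh cells, and a second value after "or" is over the 12 that remain. Of 10 general neuronal genes, the summed level had a median of 13914 CPM in high-Nefh cells (6778 to 22287) and 10522 CPM in low-Nefh cells (33.2 to 30375, or 9599 to 30375 without the cells set apart). The summed level of 8 satellite glia genes had a median of 538 CPM in high-Nefh cells (29.4 to 27717) and 413 CPM in low-Nefh cells (8.30 to 53528). The summed level of the Schwann cell genes had a median of 693 CPM (28 to 1591) against 1819 CPM (0 to 13478, or 570 to 2494 without the cells set apart). The part of these values in the differences below was not tested.

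**Figure D2:**
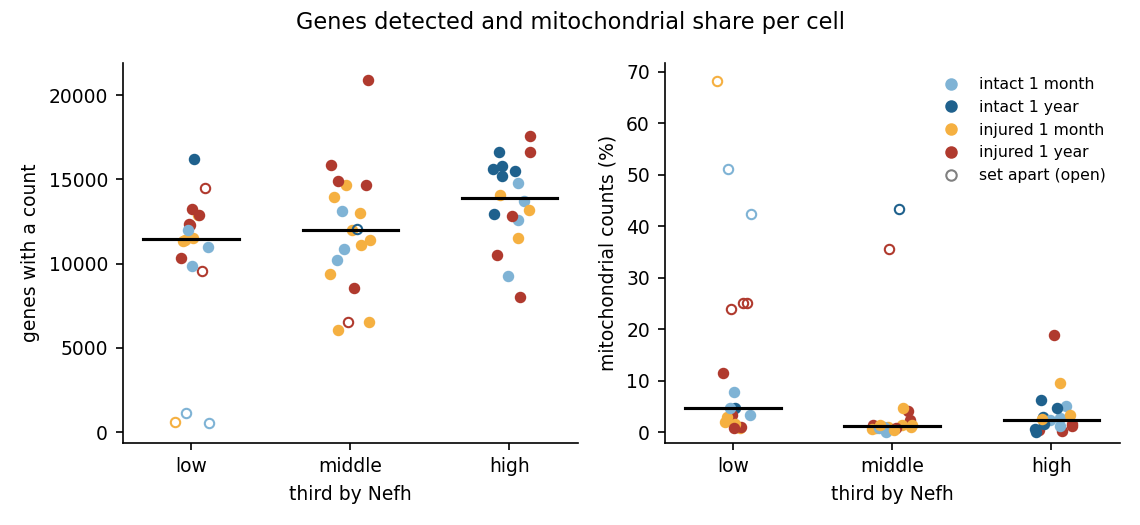
Genes with a count (left) and percent of mitochondrial counts (right) in each ranked cell, by position in the Nefh ranking; bars are medians, colours the groups and open circles the 8 cells set apart. The 3 cells near 0 genes and most of the cells above 20% mitochondrial counts are low-Nefh cells.

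A difference is the mean log2(CPM + 1) of the high-Nefh cells minus that of the low-Nefh cells, and a gene is counted as higher or lower when it passes 1 in size, a 2-fold change on that scale. Of 13890 genes with at least 1 CPM in at least 10 ranked cells, 6234 were higher in high-Nefh cells (44.9%) and 333 were lower (2.4%), and the median gene stood 0.88 higher. Without the cells set apart, 2534 were higher (18.2%), 991 were lower (7.13%), and the median gene stood 0.17 higher. Counts within a gene list are read against these shares. Higher values for the typical gene thus went with the 6 low-Nefh cells that had few genes or much mitochondrial RNA.

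The other subunits of the myelinated axon's filaments followed Nefh. Nefm, the medium subunit, ranged from 3994 to 25157 CPM in high-Nefh cells (median 8607) and from 33.2 to 7235 CPM in low-Nefh cells (median 1484), a difference of 2.92, or 2.42 without the cells set apart. Nefl, the light subunit, ranged from 3774 to 23082 CPM (median 7368) against 25 to 6996 CPM (median 1994), a difference of 2.21, or 1.58. Both ranges overlapped, although no low-Nefh cell reached the median of the high-Nefh cells. In the deposited annotation the span of Nefm (chr14:68082590-68124846) contains that of Nefl (chr14:68083863-68089095), so reads shared between them make both values uncertain. Prph encodes peripherin, a filament protein most abundant in small neurons. Its median was 1958 CPM in high-Nefh cells (429 to 17621) and 1115 CPM in low-Nefh cells (0 to 4486), and its difference of 2.41 shrank to 0.03 without the cells set apart. Ina, the gene of alpha-internexin, went the other way, with a median of 0.226 CPM (0 to 363) against 55.2 CPM (0 to 388) and a difference of -1.75, or -2.63. Of these 4 genes, 3 were higher and 1 was lower.

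Identity genes of myelinated subtypes were higher in high-Nefh cells, in 18 of 19 genes tested of a list of 20, with a median difference of 2.29, and in 18 of 19 without the cells set apart (median 2.49). The 1 gene that did not pass was B3gnt2, at 0.05. The list median was 2.68 within the injured 1-month cells, 1.55 within the injured 1-year cells and 4.64 within the intact 1-month cells, against 0.99, 0.36 and 1.56 for all genes. Slc17a7 encodes VGLUT1, the vesicular glutamate transporter of large afferents. It ranged from 0.906 to 463 CPM in high-Nefh cells (median 143) and from 0 to 88.3 CPM in low-Nefh cells (median 2.54), a difference of 4.40, or 4.29. At or above 100 CPM it was found in 11 of 18 high-Nefh, 4 of 19 middle and 0 of 18 low-Nefh cells. Thy1, a surface glycoprotein of projection neurons, ranged from 122 to 2428 CPM (median 591) against 0 to 1298 CPM (median 19.4), a difference of 4.70, or 3.88. At 100 CPM it was found in 18 of 18 high-Nefh, 19 of 19 middle and 6 of 18 low-Nefh cells. Hapln4, a link protein of the extracellular matrix around neurons, had a median of 130 CPM (0 to 408) against 0.238 CPM (0 to 103), a difference of 4.45, or 4.35. Vsnl1, a neuronal calcium sensor, differed by 4.66, or 4.34.

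Markers of single myelinated subtypes were found in some high-Nefh cells and not in others. Pvalb ranged from 0 to 1752 CPM in high-Nefh cells (median 34.7) and from 0 to 12.7 CPM in low-Nefh cells (median 0.352), a difference of 3.95, or 3.79. At or above 100 CPM it was found in 7 of 18 high-Nefh cells, 1 of 19 middle cells and 0 of 18 low-Nefh cells (exact 95% upper limit 18.5%). Pooled over cells, Pvalb stood at 296.6 CPM in the high set (exact 95% Poisson interval 293 to 300.2) and 1.16 CPM in the low set (0.906 to 1.46). These intervals treat counts as independent and leave out the spread between cells. Runx3, a transcription factor of proprioceptors, had a median of 0.123 CPM (0 to 102) in high-Nefh cells and was at most 3.64 CPM in low-Nefh cells. Ntrk3, the receptor for neurotrophin-3, had a median of 272 CPM (1.27 to 3035) against 56.7 CPM (0 to 814), a difference of 2.50, or 2.59. Spp1, which encodes osteopontin, had a median of 14.4 CPM (0 to 1247) against 0.178 CPM (0 to 1075), and its difference of 1.92 became 3.09 without the cells set apart. Among the 18 high-Nefh cells, Thy1 at 100 CPM was thus shared by all, Slc17a7 by 11 and Pvalb by 7.

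**Figure D3:**
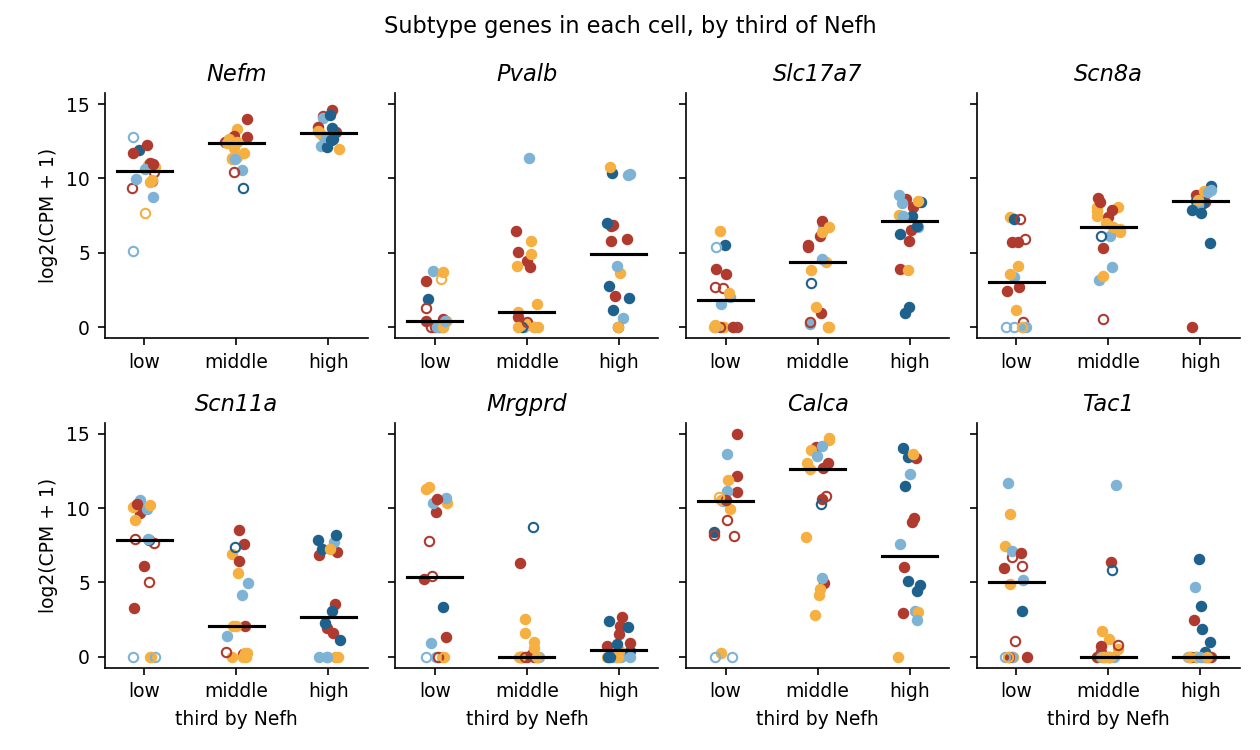
Subtype genes in each of the 55 cells, as log2(CPM + 1), by position in the Nefh ranking; bars are medians, open circles the 8 cells set apart, and colours the groups (light blue intact 1 month, dark blue intact 1 year, yellow injured 1 month, red injured 1 year). Scn8a and Slc17a7 climb from low to high cells, Pvalb is high in 7 high-Nefh cells, and Mrgprd is at or above 100 CPM in 8 low-Nefh cells and 0 high-Nefh cells.

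Of the 6 lists whose level was computed per cell, the channel genes of fast firing separated the ends of the ranking in the most cells. All 12 were higher in high-Nefh cells, with a median difference of 3.97, and all 12 remained past 1 without the cells set apart (median 3.53). The list median was 4.42, 2.48 and 5.53 within the injured 1-month, injured 1-year and intact 1-month cells. Averaged per cell over the 12 genes, the level ranged from 5.13 to 8.85 in high-Nefh cells (median 7.51) and from 0 to 6.18 in low-Nefh cells (median 3.64) on the log2(CPM + 1) scale. Of the 18 high-Nefh cells, 15 stood above every low-Nefh cell. For the myelinated identity list the same held for 8 of 18.

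Among sodium channel genes, Scn8a, which encodes Nav1.6 of the node of Ranvier, ranged from 0 to 712 CPM in high-Nefh cells (median 355) and from 0 to 167 CPM in low-Nefh cells (median 7.53), a difference of 4.77, or 4.32. It was at 0 in 1 high-Nefh cell, and 16 of 18 high-Nefh, 10 of 19 middle and 3 of 18 low-Nefh cells reached 100 CPM. Scn1a, which encodes Nav1.1, had a median of 182 CPM (0.598 to 672) against 0.253 CPM (0 to 176), a difference of 4.35, or 4.88. The auxiliary subunit gene Scn4b had a median of 648 CPM (48.2 to 1922) against 18.5 CPM (0 to 836), a difference of 4.76, or 4.45. Among potassium channel genes, Kcna1, which encodes Kv1.1 beside the node, had a median of 469 CPM (101 to 1169) against 59.9 CPM (0 to 683), a difference of 3.41, or 3.11. The smallest difference of the list was that of Kcnab2, a potassium channel subunit, at 2.01, or 1.25. The pacemaker channel gene Hcn2 differed by 4.28, or 4.10. Each of these ranges overlapped between the sets of cells.

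Genes shared by nociceptors were lower in high-Nefh cells in 6 of 11, higher in 1, with a median difference of -1.36. Without the cells set apart, 10 of 11 were lower and 0 higher, with a median of -2.62. Scn11a ranged from 0 to 1457 CPM in low-Nefh cells (median 231, or 695 over the 12) and from 0 to 286 CPM in high-Nefh cells (median 5.57), a difference of -2.77, or -4.26. It reached 100 CPM in 11 of 18 low-Nefh and 7 of 18 high-Nefh cells. Scn10a, which encodes the nociceptor channel Nav1.8, had a median of 578 CPM in low-Nefh cells (0 to 2814) and 68.2 CPM in high-Nefh cells (0 to 2336), a difference of -1.53, or -3.27. At 100 CPM it was found in 13 low-Nefh, 11 middle and 9 high-Nefh cells, so it was present in a large share of both ends. Fxyd2, a regulator of the sodium pump, had a median of 322 CPM (0 to 8690) against 18.8 CPM (0 to 549), a difference of -3.81, or -5.56. P2rx3, an ATP-gated channel, had a median of 284 CPM (0 to 2156) against 11 CPM (0 to 365), a difference of -2.79, or -4.17. Trpa1, an irritant-gated channel, differed by -2.68, or -4.48.

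Most non-peptidergic genes were lower in high-Nefh cells. Of 11 tested from a list of 15, 8 were lower and 1 higher, with a median of -1.37, and without the cells set apart 8 were lower and 1 higher, with a median of -2.64. Mrgprd ranged from 0 to 2716 CPM in low-Nefh cells (median 39.5, or 1069 over the 12) and from 0 to 5.34 CPM in high-Nefh cells (median 0.349), a difference of -4.69, or -6.32. It reached 100 CPM in 8 of 18 low-Nefh cells, 1 of 19 middle cells and 0 of 18 high-Nefh cells (exact 95% upper limit 18.5%). Pooled, it stood at 883.5 CPM in the low set (876 to 891) and 0.995 CPM in the high set (0.797 to 1.23). Lpar3, a lysophosphatidic acid receptor, was at most 1.80 CPM in high-Nefh cells and reached 784 CPM in low-Nefh cells, a difference of -3.49, or -4.47. Gfra2, the co-receptor for neurturin, had a median of 65 CPM in low-Nefh cells (0 to 737) and 1.01 CPM in high-Nefh cells (0 to 122), a difference of -3.50, or -4.78. The 1 gene on the other side was Htr1f, a serotonin receptor, with a median of 3.97 CPM in high-Nefh cells (0 to 342) and 0 CPM in low-Nefh cells (0 to 60.2), a difference of 1.83, or 2.21. Mrgpra3, Lpar5, Sst and Nppb did not reach 1 CPM in 10 cells and were not tested. Averaged per cell, the list stood above every high-Nefh cell in 8 of 18 low-Nefh cells.

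Peptidergic genes did not follow Nefh as 1 block. Of 11, 2 were higher and 5 lower in high-Nefh cells, with a median of 0.02, and the same counts and median held without the cells set apart. For all genes the median was 0.88, or 0.17 without the cells set apart. Within the injured 1-month, injured 1-year and intact 1-month cells the list median was 0, -1.14 and -0.71. For all genes it was 0.99, 0.36 and 1.56 there. The list median was between -1.34 and 0.22 over the other settings, and negative in most of them. Tac1, the precursor of substance P, had a median of 31.6 CPM in low-Nefh cells (0 to 3312) and 0 CPM in high-Nefh cells (0 to 93.5), a difference of -3.08, or -4.03. It reached 100 CPM in 6 of 18 low-Nefh and 0 of 18 high-Nefh cells. Calca, the gene of the neuropeptide CGRP, had a median of 1454 CPM in low-Nefh cells (0 to 32035) and 126 CPM in high-Nefh cells (0 to 16486), a difference of -1.40, or -2.86. It was nevertheless at or above 100 CPM in 9 of 18 high-Nefh cells, and pooled counts turned the order, with 4790 CPM in the high set and 3525 CPM in the low set. Trpv1, the heat and capsaicin channel, reached 100 CPM in 2 low-Nefh and 1 high-Nefh cell, and differed by -1.81, or -2.51. Adcyap1, the precursor of the peptide PACAP, went the other way, with a median of 20.4 CPM in high-Nefh cells (0 to 745) and 0 CPM in low-Nefh cells (0 to 1095), a difference of 2.05, or 1.75, that pooled counts turned to -1.05. Cckar, a cholecystokinin receptor, differed by 1.92, or 1.83. Of the 5 genes tested for C-fibre touch receptors, 2 were higher and 1 lower, with a median of -0.14, and without the cells set apart 1 was higher and 2 lower, with a median of -0.06. Th, tyrosine hydroxylase, which defines those cells, reached 100 CPM in 1 low-Nefh cell and in 0 high-Nefh and 0 middle cells.

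**Figure D4:**
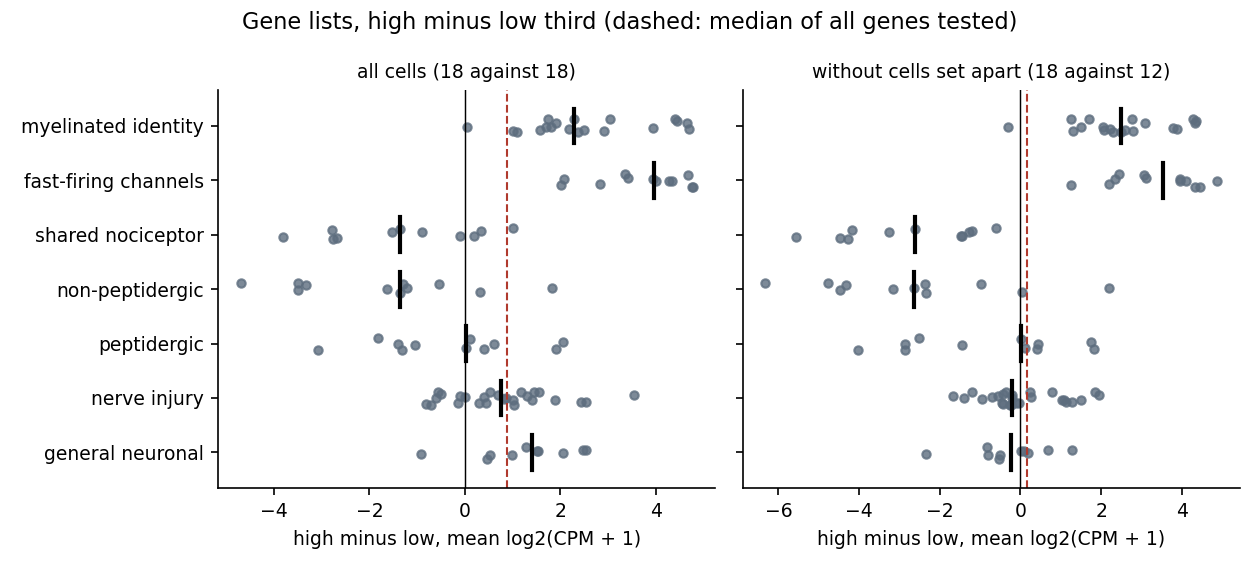
Differences between high-Nefh and low-Nefh cells for each tested gene of 7 lists, in mean log2(CPM + 1), for all cells (left, 18 against 18) and without the cells set apart (right, 18 against 12). Points are genes, black bars list medians, and the red dashed line the median of all 13890 genes (0.88 and 0.17). Fast-firing genes lie at the right of both panels and non-peptidergic genes mostly at the left.

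Pairs of markers show how the programs met in single cells, taking 100 CPM as present. In the high set, 1 of the 7 Pvalb cells also had Calca, while 8 of the 11 other cells did. The same split held for Scn10a, found in 1 of the 7 Pvalb cells and 8 of the 11 others, and Calca and Scn10a were found together in 8 cells. In the high set, cells with these nociceptor genes and cells with Pvalb thus overlapped in 1 cell for each pair. It was the same cell in both pairs, replicate 15 of the injured 1-year group. That library held 187292 counts outside the most abundant feature, with Pvalb at 117 CPM, Scn10a at 112 CPM and Scn8a at 0 CPM. Over all 55 ranked cells, Mrgprd was present in 9, of which 8 had Scn11a, 9 had Calca and 4 had Tac1. Of those 9, 0 were among the 8 cells with Pvalb and 0 among the 29 cells with Scn8a.

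Outside the lists, the genes with the most positive difference of the same sign in the 3 groups that had at least 2 cells at each end included genes of synaptic vesicles and of the axon. Slc6a17, a vesicular amino acid transporter, had a median of 256 CPM in high-Nefh cells (48.1 to 720) and 0.777 CPM in low-Nefh cells (0 to 107), a difference of 5.67. Syt2, a fast calcium sensor of transmitter release, had a median of 680 CPM (154 to 1147) against 9.94 CPM (0 to 1979), a difference of 5.22. Cntnap1, a protein of the junction between axon and myelin, had a median of 264 CPM (134 to 971) against 3.98 CPM (0 to 532), a difference of 5.04. Lgi3, Sv2b, Faim2, Disp3, Lynx1, Tmem229b and Cpne6 made up the rest, at 5.10 to 5.39. All 10 stayed between 4.40 and 5.43 without the cells set apart.

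The 10 genes at the other end were led by Cd44, a receptor for hyaluronan, with a median of 279 CPM in low-Nefh cells (0 to 1111) and 1.21 CPM in high-Nefh cells (0 to 135), a difference of -5.09. It reached 100 CPM in 11 of 18 low-Nefh and 1 of 18 high-Nefh cells. Acpp encodes the prostatic acid phosphatase that has long served as a histochemical label of non-peptidergic neurons. It had a median of 80.5 CPM in low-Nefh cells (0 to 1695) and 2.36 CPM in high-Nefh cells (0 to 88.5), a difference of -3.55. Prkcq, a protein kinase C, had a median of 54.7 CPM (0 to 631) against 0.967 CPM (0 to 12.3), a difference of -3.68. Mal2, Ctxn3, Ly86, Tmem45b, Moxd1, Gna14 and Carhsp1 made up the rest, at -4.48 to -3.20. Without the cells set apart all 10 moved further from 0, to between -6.47 and -4.39.

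Full separation of the 2 sets was rare. Every high-Nefh cell stood above every low-Nefh cell for 4 of the 13890 genes (0.0288%), and the reverse held for 0 genes (0.0%). Besides Nefh, whose separation was fixed by the ranking itself, these were Mapk8ip1, Sptbn4 and Zfand5. Mapk8ip1, a scaffold protein that links cargo to the axonal motor kinesin, ranged from 146 to 565 CPM in high-Nefh cells (median 294) and from 0 to 135 CPM in low-Nefh cells (median 79.8). Sptbn4, the spectrin of nodes of Ranvier and axon initial segments, ranged from 20.7 to 112 CPM (median 30.8) against 0 to 16.4 CPM (median 1.23). Zfand5, a zinc finger protein that activates the proteasome, ranged from 251 to 3011 CPM (median 353) against 0 to 247 CPM (median 104). Their differences were 3.04, 3.78 and 3.22, and 1.74, 3.41 and 1.60 without the cells set apart.

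Over all 55 cells, Nefm had the highest Spearman correlation with Nefh among 9786 genes, at 0.825. Mapk8ip1 (0.818), Arhgef4 (0.814), Slc6a17 (0.814), Them6 (0.813), Endod1 (0.802), Lgi3 (0.790), Cers1 (0.790), Epb41l1 (0.790) and Tmem229b (0.788) came next. The lowest were Ptma at -0.705, Rpl10 at -0.624, Tmsb4x at -0.609, Rps4x at -0.587 Ftl1 at -0.580, Fdft1 at -0.577, Arpc5 at -0.569, Selenok at -0.561, Rps18 at -0.530 and Rps19 at -0.530. Over the 47 cells that were not set apart, Arpc5 (-0.812) and Fdft1 (-0.774) stood below Ptma (-0.734), and Nefm stood at 0.822. Ptma, which encodes the small nuclear protein prothymosin alpha, had a median of 28.8 CPM in high-Nefh cells (13.7 to 116) and 208 CPM in low-Nefh cells (0 to 988). Several of the others encode ribosomal proteins. These values describe the same cells that were ranked, and the points share each cell's depth: the number of genes detected itself had a correlation of 0.433 with Nefh, and the median gene one of 0.187.

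Nerve injury genes were then compared between injured and intact cells at each end of the ranking, 8 against 10 high-Nefh cells and 12 against 6 low-Nefh cells. In high-Nefh cells 11 of 26 injury genes were higher in injured cells and 0 lower, with a median difference of 0.95, while 255 of all genes were higher (1.84%) and 827 lower (5.95%), with a median of -0.21. The list median was 1.70 at 1 month (3 against 4 cells) and 0.83 at 1 year (5 against 6 cells), beside 0.00 and -0.36 for all genes. In low-Nefh cells 15 of 26 were higher and 0 lower, with a median of 1.11, beside 3803 of all genes higher (27.4%) and 587 lower (4.23%), with a median of 0.46. Without the cells set apart, 8 injured and 4 intact low-Nefh cells remained, in which 8 of 26 were higher and 3 lower, with a median of 0.65, beside 1154 of all genes higher (8.31%) and 2314 lower (16.7%), with a median of -0.10. Only 1 intact low-Nefh cell was from 1 year, so the pooled low-end values mix condition with age. Within 1 month, 5 injured against 5 intact low-Nefh cells gave a list median of 1.75, beside 0.57 for all genes. When only cells with at least 1000000 counts were ranked anew, the low end held 10 injured and 3 intact cells. Its list median was -0.32. Replicate 9 of the injured 1-month group, at 8059 CPM of Sprr1a, was then no longer at the low end. The difference between the 2 ends was not tested. Schwann cell genes also differed with condition at the low end, where their sum had a median of 2181 CPM in injured cells (999 to 13478) and 1092 CPM in intact cells (0 to 1941). At the high end it was 630 CPM (28 to 1314) against 795 CPM (68.6 to 1591). Satellite glia sums had medians of 538 and 573 CPM in injured and intact high-Nefh cells and of 473 and 272 CPM in low-Nefh cells. Their part in the result was not tested.

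Sprr1a was high in a few cells only. This gene, which encodes a small proline-rich protein of regenerating neurons, was at 28, 1425 and 0 CPM in the high-Nefh injured cells at 1 month and at 1554, 0.299, 0, 0 and 0.179 CPM in those at 1 year. The 1-year cell at 1554 CPM, replicate 15, was a shallow library. It held 187292 counts outside the most abundant feature, which took 97.2% of its counts without spike-ins. Sprr1a was at most 0.807 CPM in the 10 intact high-Nefh cells. At or above 100 CPM it was found in 2 of 8 injured high-Nefh cells (25%, exact 95% interval 3.19% to 65.1%) and in 1 of 12 injured low-Nefh cells (8.33%, 0.211% to 38.5%). These intervals treat cells as independent draws, leave out the spread between animals and make no comparison of conditions. The low-Nefh cell was replicate 9 of the injured 1-month group, at 8059 CPM, while the next highest stood at 8.35 CPM and intact low-Nefh cells at most at 0.146 CPM. Over all ranked cells 7 had Sprr1a, all 7 with Atf3 and all 7 with Npy at or above 100 CPM, and 6 of the 7 with Flrt3. Of the 9 cells with Mrgprd, 0 had Sprr1a. Names of the injured 1-month cells begin with L4 in 10 cells (2 of them low-Nefh) and with L5 in 7 (3 low-Nefh). Among these, Sprr1a at 100 CPM was found in 1 high-Nefh, 4 middle and 1 low-Nefh cell with L4 names. It was found in 0 cells with L5 names at any position. The part of the ganglion in these counts was not tested.

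Atf3, the transcription factor most often used as a marker of axotomy, was at 42, 1296 and 120 CPM in high-Nefh injured cells at 1 month and at 929, 31.7, 16.2, 103 and 81.9 CPM in those at 1 year. In intact high-Nefh cells it ranged from 23.4 to 164 CPM (median 62.4), so 2 injured cells stood far above the intact range and the other 6 within it or below it. In low-Nefh cells it ranged from 0 to 3634 CPM with injury (median 15.2) and from 0 to 126 CPM without (median 6.11), and only the cell with the highest Sprr1a lay above the intact range. The differences were 0.94 at the high end and 0.87 at the low end, or 0.57 without the cells set apart. Between the ends, Atf3 stood 2.54 higher in high-Nefh cells on the log2(CPM + 1) scale, yet pooled counts over the same cells turned the order, with 373.5 CPM in low-Nefh cells, 1 of which stood at 3634 CPM, against 89 CPM in high-Nefh cells. With both conditions pooled, the injury list as a whole did not stand out between the ends, with 11 of 26 genes higher, 0 lower and a median of 0.75. For all genes 44.9% were higher, with a median of 0.88. Without the cells set apart 7 were higher and 3 lower (median -0.20), beside 18.2% and 7.13% of all genes (median 0.17). The ends differ in condition, with 8 injured and 10 intact high-Nefh cells against 12 and 6 low-Nefh cells. Within injured cells the list median was 0.83, or 0.45 without the cells set apart, beside 0.60, or 0.11, for all genes. Within intact cells it was 1.23, or 0.02, beside 1.33, or 0.17. Jun had a median of 439 CPM in injured (60.2 to 5275) and 219 CPM in intact high-Nefh cells (64.9 to 988), a difference of 0.98. In low-Nefh cells it was 113 CPM (0 to 791) against 63.4 CPM (0 to 236), where a difference of 2.11 fell to 0.51 without the cells set apart.

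**Figure D5:**
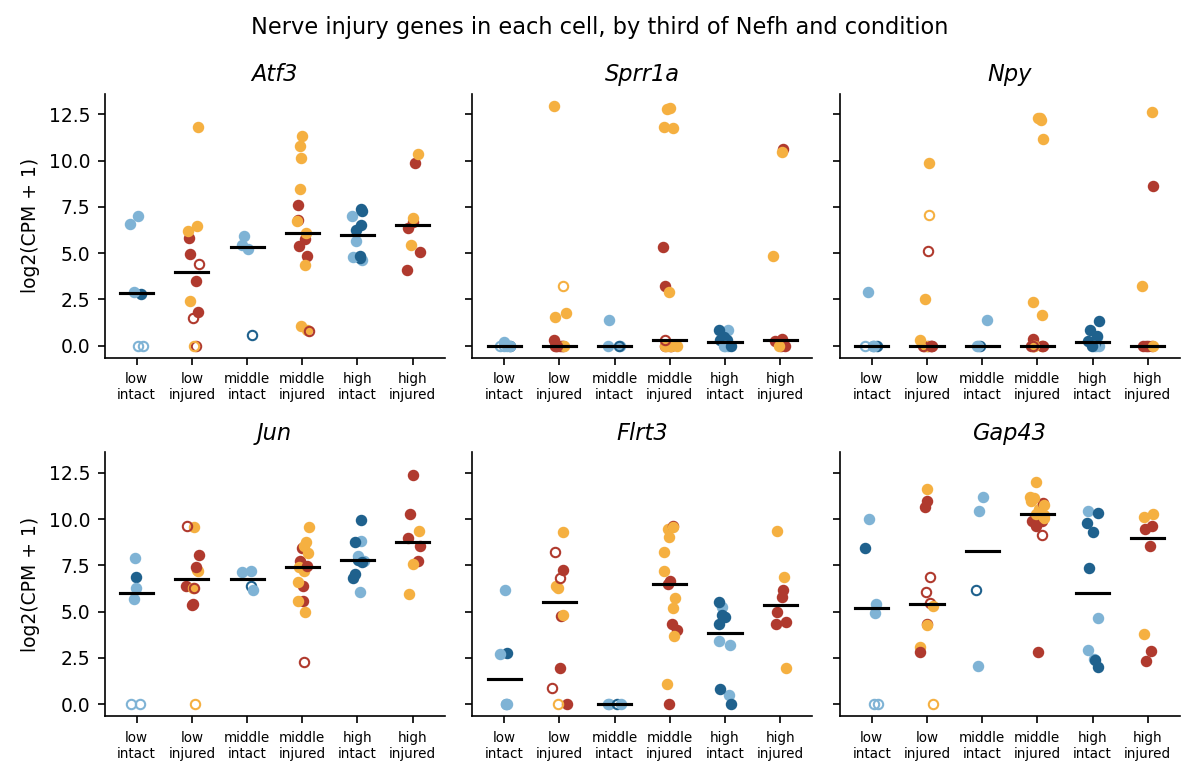
Injury genes in each of the 55 cells as log2(CPM + 1), by position in the Nefh ranking and condition; bars are medians, open circles the 8 cells set apart, and colours the groups (light blue intact 1 month, dark blue intact 1 year, yellow injured 1 month, red injured 1 year). Sprr1a is at or above 100 CPM in 2 high-Nefh, 4 middle and 1 low-Nefh injured cells, and Jun and Gap43 overlap between conditions.

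Flrt3, an adhesion protein of growing axons, was less tied to single cells. Its median was 41.7 CPM in injured high-Nefh cells (2.80 to 659) and 14.2 CPM in intact ones (0 to 44.7), a difference of 2.23. In low-Nefh cells the median was 51.2 CPM (0 to 631) against 2.78 CPM (0 to 70.2), a difference of 2.78, or 2.19 without the cells set apart. Npy, a neuropeptide that large DRG neurons make after axotomy, differed by 2.71 and 1.59 at the high and low ends (0.87 at the low end without the cells set apart), and by -0.19 at the high end when medians over cells replaced means. Among high-Nefh cells it stood at 6234 CPM in replicate 3 of the injured 1-month group and at 400.4 CPM in replicate 15 of the injured 1-year group. Fst, an activin antagonist, differed by 2.20 and 1.54 (2.04 at the low end without the cells set apart), and Tubb6, a beta-tubulin, by 1.90 and 1.52 (0.76). Gal, the neuropeptide galanin, differed by 1.27 in high-Nefh cells (-0.94 from pooled counts) and by 0.08 in low-Nefh cells, or -1.74 without the cells set apart. Gap43, a protein of growth cones, differed by 0.96 and 1.15, and the latter turned to -0.57 without the cells set apart. Nts, the precursor of neurotensin, differed by 1.81 and 2.29, the latter 1.35 without the cells set apart.

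The subtype programs of each end were compared between conditions in the same way. In high-Nefh cells 2 of 12 fast-firing genes were lower with injury and 0 higher (median -0.50), and 2 of 19 myelinated identity genes were lower and 0 higher (median -0.23), beside 5.95% lower and a median of -0.21 for all genes. The 2 ages differed. At 1 month the fast-firing and myelinated medians were -0.89 and -0.76, beside 0.00 for all genes. At 1 year they were -0.28 and 0.37, beside -0.36 for all genes. In low-Nefh cells 8 of 11 non-peptidergic genes were higher in injured cells (median 1.42), and 6 of 11 without the cells set apart (median 1.16), beside 27.4% and 8.31% of all genes. Within 1 month the non-peptidergic median was 1.78, beside 0.57 for all genes. Mrgprd reached 100 CPM in 6 of 12 injured and 2 of 6 intact low-Nefh cells. The part of this make-up and of age in the difference was not tested. Of the shared nociceptor genes, 4 of 11 were higher and 1 lower (median 0.58), but without the cells set apart 0 were higher and 6 lower (median -1.47). Of the peptidergic genes, 3 of 11 were higher and 3 lower (median -0.24), and without the cells set apart 1 was higher and 6 lower (median -1.15), beside 16.7% of all genes lower. Outside the lists, the high-Nefh genes with the most positive difference at both ages were Sdc1 at 2.94, Cyp1b1 at 2.65, Car3 at 2.35, Prr15 at 2.13 and Cd24a at 2.10. Sdc1, the heparan sulphate proteoglycan syndecan-1, had a median of 11.5 CPM in injured (0 to 454) and 0.0533 CPM in intact high-Nefh cells (0 to 50.4). The most negative were Cnr1 at -2.53, Rhbdl3 at -2.35, Kcns3 at -2.31, Ptn at -2.16 and Olfm2 at -2.14. Cnr1, the cannabinoid receptor CB1, had a median of 0 CPM in injured (0 to 48.2) and 17.2 CPM in intact high-Nefh cells (0.136 to 162), and Kcns3, a modulator of potassium channels, 0.269 CPM (0 to 219) against 152 CPM (0 to 312). Ranking by Nefh within each group turned the sign of Kcns3, to 0.31. All of these ranges overlapped. The rule of the same sign at both ages names no gene at the low end, since 1 intact low-Nefh cell was from 1 year.

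The low-input libraries, which the ranking did not use, gave a replicated view of the same genes, with 3 libraries for each of injured and intact neurons at 1, 8 and 12 months. These libraries mix neurons of all types, so fewer cells of a type and less RNA per cell cannot be told apart in them. Of 14212 genes tested with edgeR's quasi-likelihood test, 726 were higher with injury at a Benjamini-Hochberg adjusted p below 0.05 (5.11%) and 152 were lower (1.07%). A block for the replicate numbers at 1 month left 572 higher and 76 lower. Of 28 injury genes tested, 24 rose and 0 fell. Atf3 rose from 5.21 ± 5.57 to 299.6 ± 144 CPM (SD, n = 9 each), a log2 change of 5.76 ± 0.56 (SE, adjusted p = 1.8e-05, edgeR), and Sprr1a from 0.212 ± 0.266 to 510.2 ± 313 CPM, a log2 change of 11.39 (adjusted p = 4.7e-08, edgeR). Nefh stood at 589 ± 283 CPM with injury and 1461 ± 2353 CPM without, a log2 difference of -1.06 ± 0.48 (adjusted p = 0.22, edgeR), where 1 intact library at 12 months was at 7662 CPM. Without intact 12 months replicate 2 the difference was -0.23. Scaled to spike-in totals instead, the median gene rose by 2.90 and Nefh, Mrgprd and Pvalb turned positive (2.50, 0.64 and 1.15). Of 5 filament genes, 0 passed edgeR's test in either direction, 1 had an unadjusted p below 0.05 and 0 passed in DESeq2, and the same counts, 0, 1 and 0, held for 20 myelinated identity genes. Averaged over the 3 ages, Hcn2, among 12 fast-firing genes, fell by 1.10 on the log2 scale (adjusted p = 0.0488, edgeR), while the median gene changed by 0.03. Prdm12, a transcription factor of nociceptors among 11 shared nociceptor genes, fell by 1.59 (adjusted p = 0.0189, edgeR). Mean Prdm12 was nevertheless higher with injury at 1 month (46.3 against 26.4 CPM). It was lower at 8 months (12.9 against 283.6 CPM) and 12 months (6.83 against 13.3 CPM). Mean Hcn2 was nearly level at 1 month (22.85 against 23.98 CPM). It was lower with injury at 8 months (9.17 against 29.5 CPM) and 12 months (8.11 against 25.2 CPM). The call for Hcn2 was lost with the block at 1 month (adjusted p = 0.0706, edgeR) and without any 1 library except intact 12 months replicate 3 or intact 8 months replicate 3 (adjusted p = 0.0529 to 0.109, edgeR), and that for Prdm12 without injured 1 month replicate 1 (adjusted p = 0.0505, edgeR). Spike-in scaling turned the sign of both, to 1.79 and 1.15. Mrgprd stood at 77.1 ± 142 and 157 ± 214 CPM (adjusted p = 0.608, edgeR) and Pvalb at 36.3 ± 42 and 80.5 ± 79.1 CPM (adjusted p = 0.439, edgeR). Averaged over the 3 ages, Il31ra and Htr1f of the non-peptidergic list and Gfra3, Adcyap1 and Cckar of the peptidergic list rose. Il31ra did not pass with a block at every age (adjusted p = 0.0599, edgeR). Mean Gfra3 differed little at 1 month (23.8 CPM with injury against 18.8 CPM without). It was 26.7 against 0.0274 CPM at 8 months and 19.5 against 0.345 CPM at 12 months.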

How the data were processed

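Raw counts of fragments per gene were deposited, which the authors made with featureCounts 1.5.2 over exons of GENCODE vM16, unstranded and per read pair, per the file headers. STAR and Trim Galore on mm10 are named in the submitters' processing notes. Counting without strand leaves antisense and overlapping genes uncertain. Of 53370 features, 92 were spike-ins and 53278 genes. The table has 87 RNA columns, 69 of single cells and 18 of low-input libraries, and 0 columns were left unused. No 2 columns were identical (0 found). Repeat deposits under 1 name share 1 column.

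CPM was computed here from the counts without spike-ins and without the most abundant feature. The cells, members and gene lists were chosen with earlier results of these data known. Single cells name no animal, so a cell is not a replicate and nothing was tested between cells. Differences use log2(CPM + 1). Intervals are exact (Clopper-Pearson or Poisson, 95%) and leave out the spread between animals. Clopper-Pearson intervals treat cells as independent draws. Poisson intervals treat counts as independent and also leave out the spread between cells. The libraries carry no molecular identifiers, so copies of 1 molecule cannot be told apart. No doublet caller was run on these hand-picked cells.

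Genes named outside the lists were, among 12431 eligible genes, the 10 with the most positive and the 10 with the most negative difference of the same sign in every group with at least 2 cells at each end (for injury, 5 and 5 with the same sign at both ages), and the 10 most and least correlated with Nefh; list genes and predicted genes were left out. A few list members are counted but not reported singly here. Low-input libraries (7531967 to 19443627 counts) were fitted with edgeR 4.0.16 (limma 3.58.1, R 4.3.3; filterByExpr, TMM, 1 mean per group, 12 residual degrees of freedom), two-sided, with DESeq2 1.42.0 as an alternative. The labels do not say whether the libraries of a group came from separate animals, so p-values measure the spread between these libraries. To see whether same-numbered libraries are pairs, their deviations from the group means were correlated over 2365 genes. It was 0.109, 0.371 and 0.328 at 1 month, where the numbers were taken to pair libraries, and -0.432 to 0.078 at 8 and 12 months. Promoters are RefSeq's on GRCm38.p6. Python 3.11.15, pandas 2.3.3 and scipy 1.17.1 were used. The scripts recovered planted changes when tested on simulated data.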

Additional observations from a re-analysis of the deposited data

Results flagged for a closer look

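In the low-Nefh set, replicate 20 of the injured 1-year cells had a nerve injury list level of 1.81 in mean log2(CPM + 1), while the other 6 of the 7 such cells ranged from 2.91 to 3.56. The gap exceeded Dixon's limit for a group of that size. Chance gives such a gap in about 1 in 20 groups, and 30 sets were examined. That cell was among those set apart, with 25% mitochondrial counts.

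The comparison of the ends leaves out the middle of the ranking. There, 4 of 15 injured cells had Sprr1a at or above 100 CPM (26.7%, exact 95% interval 7.79% to 55.1%) and 0 of 4 intact cells did.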

How the results depend on the processing

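Over 20 alternative settings for the single cells, the list medians of fast-firing genes (2.25 to 5.62), myelinated identity genes (1.22 to 3.12) and filament genes (0.69 to 2.58) stayed positive and those of non-peptidergic (-3.18 to -0.79) and shared nociceptor genes (-2.83 to -0.42) stayed negative. The counts of genes did not hold, nor did the injury list at the low end, and the cause was not tested. Leaving out cells set apart, removing them before ranking, leaving out glia-rich cells and the 1-month block were chosen after seeing the data. With at least 1000000 counts a cell, the remaining cells were ranked anew.

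Genes higher and lower in high-Nefh cells numbered 3899 and 674 with at least 1000000 counts a cell, 2534 and 991 without the cells set apart, 3331 and 767 with them removed before ranking, and 1673 and 1737 from pooled counts. A pseudocount of 0.1 gave 9868 higher, and one of 10 gave 1769 higher and 183 lower. Genes lower numbered 156 with the dominant feature in the total, 153 with the ranking cut in 2, 571 with the ranking cut in 4, 534 with medians over cells, 536 with ranks within groups, 217 without injured and 561 without intact 1-year cells. Fast-firing medians were 5.62 and 2.25 with pseudocounts of 0.1 and 10.

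The filament median was 1.20 with at least 1000000 counts, 0.69 with cells set apart removed before ranking, 0.80 without them, 1.89 with the ranking cut in 2 and without mitochondrial genes, 1.34 with medians over cells, 1.03 pooled and 1.98 without intact 1-month cells. The non-peptidergic median was -2.37 with at least 1000000 counts, -3.18 pooled and -2.64 without the cells set apart. The shared nociceptor median was -2.83, -0.42, -2.42, -2.53 and -2.62 with at least 1000000 counts, with the ranking cut in 2, with medians over cells, with the ranking cut in 4 and without the cells set apart. The peptidergic median was -1.34 with at least 1000000 counts, -0.72 with cells set apart removed before ranking and when thinned to 100000 counts, -0.62 pooled, -1.15 with the ranking cut in 4, -1.12 with ranks within groups, and -1.08 and -1.14 without injured 1-month and intact 1-year cells.

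The injury list at the high end had a median of 1.77 with ranks within groups, and 1.91 and 1.72 without injured and intact 1-year cells. At the low end it was -0.32 with at least 1000000 counts, 0.35 with cells set apart removed before ranking, 0.27 with the dominant feature in the total, 1.76 with groups weighted equally, 0.24 with medians over cells, 1.85 with a pseudocount of 0.1, 0.43 with the ranking cut in 4 and 0.34 without intact 1-year cells.

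Of the single genes, pooled counts turned Adcyap1 (-1.05), Atf3 (-2.06), Calca (0.44), Gap43 (-0.19) and Tubb6 (-2.78) between the ends, and Gal with injury at the high end (-0.94). Gap43 between the ends was -0.23 without the cells set apart and -1.69 with them removed before ranking, and Prph was -0.030 in the latter setting. With injury at the low end, Gap43 was -1.82 with at least 1000000 counts, -0.25 with the ranking cut in 4, -0.30 with ranks within groups, and -0.57 and -0.41 without the cells set apart and with them removed before ranking, and Jun was -0.094 with at least 1000000 counts. At the high end, Npy was -0.19 with medians over cells and Kcns3 0.31 with ranks within groups.

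In the low-input libraries, leaving out 1 library gave 505 (without injured 12 months replicate 2) to 1042 (without intact 12 months replicate 2) genes higher and 56 to 420 lower, with the same libraries at the extremes. Spike-in scaling gave 13492 and 1, DESeq2 1073 and 475, and no filter 755 and 80. A replicate block at all ages gave 308 and 21, and a replicate block at 1 month only 572 and 76; of the 20 genes for which this was run, Hcn2 lost its call with either (adjusted p = 0.179 and 0.0706, edgeR) and Prdm12 (0.0858) and Il31ra (0.0599) with the block at all ages, and no other call among these changed, though Nefm (0.0081) and Spp1 (1.90) turned positive with the block at all ages. Spike-in scaling turned Nefh (2.50), Nefm (3.18), Nefl (2.60), Prph (2.42), Pvalb (1.15), Spp1 (2.01), Mrgprd (0.64), Hcn2 (1.79) and Prdm12 (1.15). Without 1 library at a time, the log2 differences ran from -1.30 to 3.46 for Spp1, -3.15 to 1.04 for Pvalb, -0.36 to 0.39 for Nefm, -0.28 to 0.096 for Prph, -0.21 to 0.32 for Scn10a, -0.13 to 0.54 for Calca, -1.24 to -0.23 for Nefh and -1.26 to -0.86 for Hcn2. Of its 25 alternatives, Hcn2 kept its sign but did not pass in 19.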
